A study of Mus musculus with 2 samples.

Results

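The barcodes described here were chosen from droplet single-cell RNA data of mouse cochlea by the genes they carried. A barcode was taken when it held a unique molecular identifier (UMI, the count of 1 captured transcript) of at least 3 of the 6 genes Igfbp6, Them5, Sostdc1, Hey2, Pou3f2 and Slc6a15. It also had to hold none of Ncmap, Prx and Pecam1, at least 500 UMIs, at least 300 genes and at most 20% mitochondrially encoded UMIs. Of the 37556 barcodes past those last 3 filters, 469 met the rule, and they are called members here. Drug-NIHL contributed 295 of 20133 barcodes and NIHL 174 of 17423. Since UMIs of the 6 genes chose the members, the levels of those genes in them are a description and no finding.

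Both libraries came from C57BL/6J mice aged 4 to 6 weeks, and each pooled 5 ears. Drug-NIHL ears received a drug at 90 mg/ml and were then exposed to noise. The NIHL ears were the untreated contralateral ears of the same animals, with the noise alone. The noise was an octave band of 8 to 16 kHz at 105 dB for 2 hours, cochleae were dissected 2 days later, and the series title shortens the drug to VPA without the labels spelling it out. How the drug was given to the ear is not stated in the labels. The labelled tissue was sensory epithelium, dissociated with trypsin. With 1 library per group, no test between Drug-NIHL and NIHL was possible, and a difference between them cannot be told apart from a difference between 2 captures. Ratios below are Drug-NIHL over NIHL with 95% intervals that cover counting error only.

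The peripheral auditory nerve is wrapped by glia of neural crest origin. Schwann cells myelinate the axons of spiral ganglion neurons, and in rodents satellite glia also lay myelin around their cell bodies. Myelin basic protein (Mbp) and peripheral myelin protein 22 (Pmp22) are among the proteins that build that myelin. Periaxin (Prx) and Ncmap are further genes of myelinating Schwann cells, and the rule asked that neither be detected. Pecam1 marks endothelium.

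The selecting genes have different roles. Igfbp6 (chr15:102144362-102149511, plus strand, GRCm38, GENCODE M21) encodes a secreted binding protein that prefers insulin-like growth factor II. Sostdc1 (chr12:36314139-36318452, plus) encodes a secreted antagonist of BMP and Wnt ligands. Hey2 (chr10:30832359-30842801, minus) is a transcriptional repressor induced by Notch. Pou3f2 (chr4:22482780-22488366, minus) is a POU-domain factor related to Pou3f1, which acts in Schwann cells on the way to myelination. Slc6a15 (chr10:103367783-103419377, plus) carries neutral amino acids, and Them5 (chr3:94342099-94347352, plus) is a mitochondrial acyl-CoA thioesterase.

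Promoter windows are shown because these genes were detected together in members. RefSeq windows of GRCm38.p6, 250 bases before to 50 after the start, were found for 4 of the 6 genes; Sostdc1 and Slc6a15 are named only. The windows were searched on both strands for a SOX core (ACAAAG), an E-box (CACGTG) and an octamer (ATGCAAAT). Over 32851 promoter windows these letters occurred in 18.7%, 7.15% and 1.74%. The one match in the 4 windows was a SOX core in Them5, at -114 from the start, shown in capitals in its reverse form. The Igfbp6 window held no match to any of the 3.
Them5, chr3:94341849-94342148, plus: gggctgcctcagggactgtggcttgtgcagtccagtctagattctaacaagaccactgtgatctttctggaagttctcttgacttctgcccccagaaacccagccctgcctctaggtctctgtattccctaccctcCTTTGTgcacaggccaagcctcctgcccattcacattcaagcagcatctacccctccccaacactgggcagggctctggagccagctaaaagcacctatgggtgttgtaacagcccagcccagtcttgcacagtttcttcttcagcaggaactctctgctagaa
Igfbp6, chr15:102143936-102144235, plus: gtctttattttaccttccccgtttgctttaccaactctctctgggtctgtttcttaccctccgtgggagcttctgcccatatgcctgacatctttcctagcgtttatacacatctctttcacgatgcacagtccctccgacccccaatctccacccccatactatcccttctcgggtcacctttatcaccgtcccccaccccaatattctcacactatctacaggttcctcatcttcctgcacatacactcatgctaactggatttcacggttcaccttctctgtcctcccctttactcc
A match here is a description of letters, not of a bound site, and no binding was measured.

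The members were not 1 kind of cell. Counted over 9 neuronal marker genes, 183 Drug-NIHL and 96 NIHL members held 0 to 2 of them, while 103 and 74 members held at least 6. Only 9 Drug-NIHL and 4 NIHL members lay between, at 3 to 5 markers. The 190 members with at least 3 neuronal markers are called neuron-marker members, with 112 in Drug-NIHL and 78 in NIHL. Their median depth was 9630.5 UMIs in Drug-NIHL and 12441 in NIHL.

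**Figure D1:**
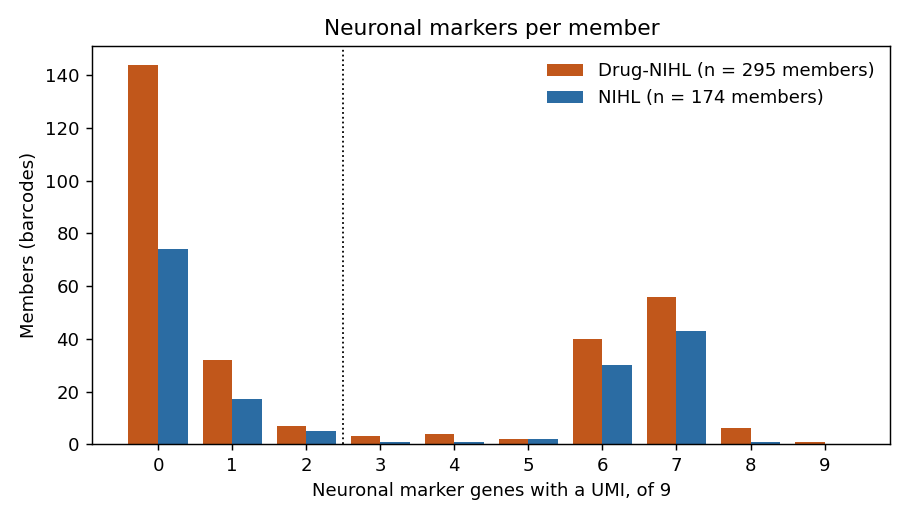
Members (vertical axis, barcodes) by how many of 9 neuronal marker genes had a UMI (horizontal axis), in Drug-NIHL and NIHL; the dotted line marks the border of 3 markers. In both libraries most members sat at 0 to 2 markers (183 in Drug-NIHL, 96 in NIHL) or at 6 and more (103 and 74), with 9 and 4 between.

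The other 279 members were parted by clusters made from all cells of both libraries. A single cluster held 131 of the Drug-NIHL and 55 of the NIHL members with under 3 neuronal markers. They are called Igfbp6-high members, with a median of 1549 UMIs in Drug-NIHL and 1957 in NIHL, and 847 and 1040 genes. The remaining 52 Drug-NIHL and 41 NIHL members lay spread over 26 and 13 clusters and are called scattered members. This parting was made after values had been seen, and clustering used all variable genes, so genes that set the 3 kinds apart are described without a test.

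Doublet scores and depth differed among the kinds and between the libraries. Scrublet marked 7 of the Drug-NIHL Igfbp6-high members (5.34%) and 1 in NIHL (1.82%). It marked 25 scattered members in Drug-NIHL (48.1%) and 9 in NIHL (22%), and 24 (21.4%) and 9 (11.5%) of the neuron-marker members. Over all cells the marked share was 12.9% in Drug-NIHL and 4.62% in NIHL, and median mitochondrial content was 6.52% and 4.79%. The part of these differences in the results below was not tested. A count of 111 barcode sequences occurred in both libraries, 2 members among them in each.

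In the Igfbp6-high members all 6 selecting genes stood far above other cells. Igfbp6 was at 7786 CPM (UMIs of the gene scaled to a constant total, summed over the cells of a kind) in Drug-NIHL members and 6978 CPM in NIHL members, with a UMI in 98.5% and 100% of them. In other cells Igfbp6 was at 400 CPM in Drug-NIHL and 357 CPM in NIHL, with a UMI in 12.7% and 11.5%. Of macrophages, a type that should lack the gene, 7.68% in Drug-NIHL and 8.37% in NIHL held an Igfbp6 UMI, at median depths of 1655.5 and 2052 UMIs, and Scrublet marked 16.7% and 8.10% of all macrophages compared. The rule itself asked for these genes, so the member shares describe the choice, and the source of the UMIs in macrophages was not tested.

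The other 5 selecting genes were each detected in fewer Igfbp6-high members. Sostdc1 had a UMI in 87.8% of them in Drug-NIHL and 76.4% in NIHL, Pou3f2 in 74.0% and 70.9%, and Slc6a15 in 67.2% and 72.7%. Hey2 was detected in 50.4% of Drug-NIHL and 50.9% of NIHL Igfbp6-high members, and Them5 in 42.0% and 47.3%. In macrophages the largest of these 5 shares was 4.87% in Drug-NIHL and 7.84% in NIHL, both for Sostdc1. Exactly 3 of the 6 genes were found in 30 Drug-NIHL (22.9%) and 13 NIHL (23.6%) Igfbp6-high members, and all 6 in 10 (7.63%) and 4 (7.27%).

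**Figure D2:**
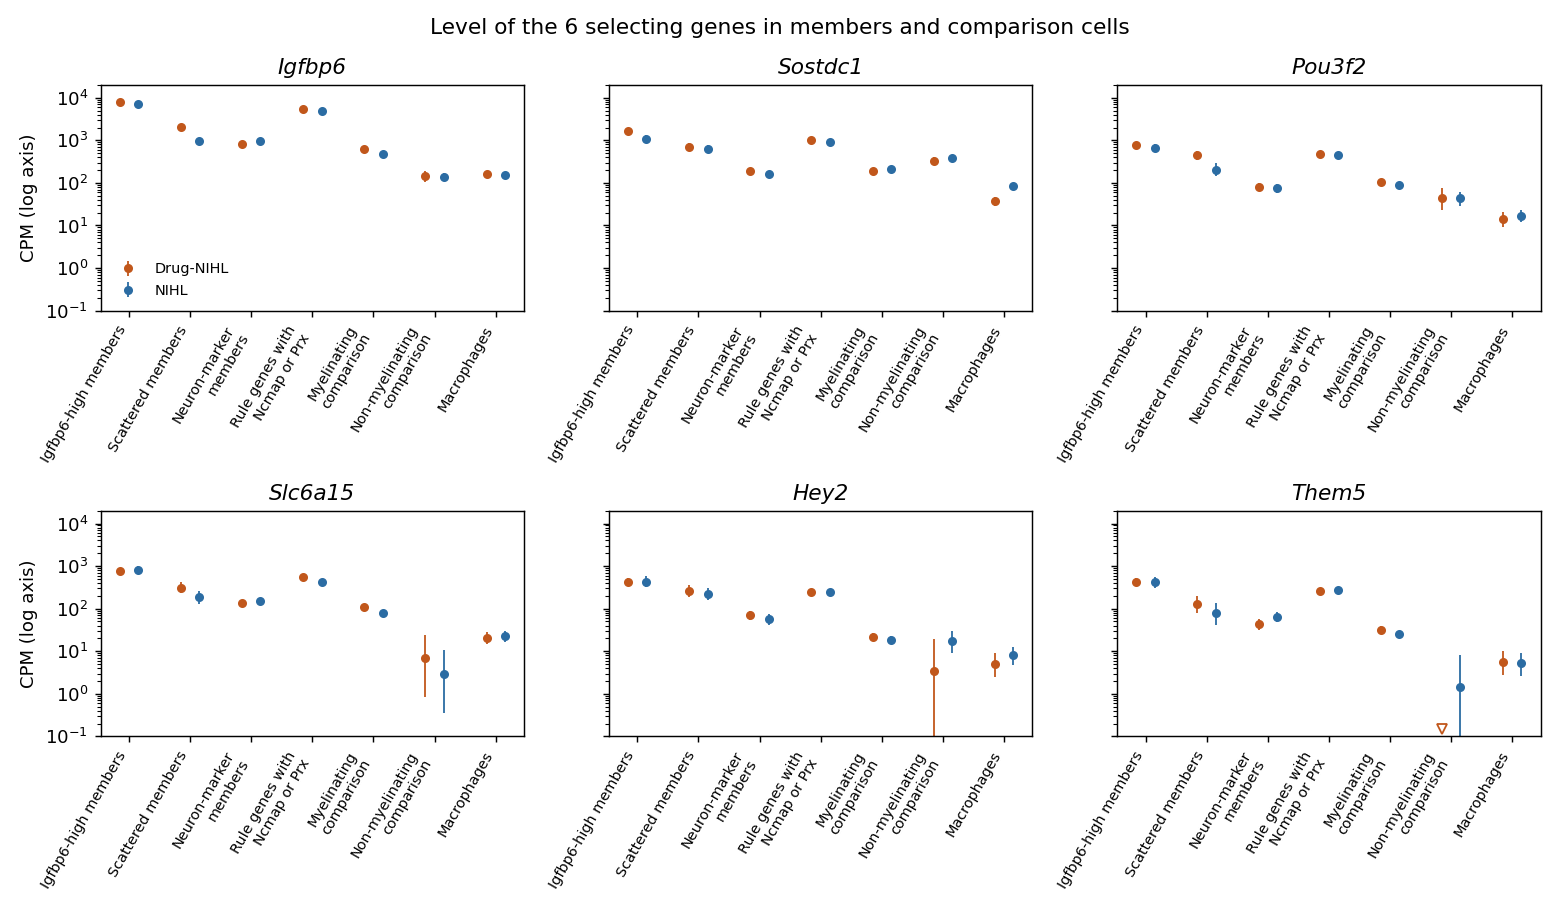
Level of each of the 6 selecting genes (CPM, log axis) in the 3 kinds of members and in comparison cells of Drug-NIHL and NIHL, with bars for 95% counting intervals and an open triangle where the sum was 0. For each gene the Igfbp6-high members stood highest; Igfbp6 reached 7786 and 6978 CPM in the Igfbp6-high members and 824 and 953 CPM in neuron-marker members.

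All members with exactly 3 of the 6 genes, just inside the threshold, numbered 98 in Drug-NIHL and 64 in NIHL, and those with exactly 4 numbered 115 and 64. Barcodes with exactly 2 of them, otherwise within the rule, numbered 199 and 215.

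Beyond the selecting genes, the Igfbp6-high members carried a peripheral glial transcript set. Among their most abundant transcripts were the metallothioneins Mt3 and Mt1, Igfbp6 and Pmp22. Mt3 stood at 9993 CPM in Drug-NIHL and 10879 CPM in NIHL members, and Pmp22 at 5838 and 5725 CPM. Cryab, a small heat shock protein, stood at 4503 and 5163 CPM. S100b, a glial calcium-binding protein, was at 705 CPM in Drug-NIHL and 674 CPM in NIHL.

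Genes most enriched in the Igfbp6-high members over other cells, with the selecting genes set aside, were of several classes. Col9a3, a chain of collagen IX, stood 19.5-fold above other cells in Drug-NIHL and 12-fold in NIHL. Npas3, a bHLH-PAS transcription factor, stood 12.8-fold and 14.1-fold above them. Hhip, which binds hedgehog ligands, was 10.8-fold and 11.8-fold higher, and Fgfbp3, which binds fibroblast growth factors, 10.7-fold and 12.9-fold. Bcan, the proteoglycan brevican, was 9.08-fold and 11.1-fold higher, and the integrin chain Itgb8 8.73-fold and 9.30-fold. Each of these ratios was above 8 in both libraries.

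The label leaves the type unnamed. Of the Schwann lists, the summed myelinating markers and the summed general Schwann markers stood above other cells. The summed non-myelinating and repair markers stood below, where Apoe and Jun made up most of these sums in other cells. The 12 myelinating Schwann markers summed to 22816 CPM in Drug-NIHL Igfbp6-high members and 25817 CPM in NIHL, against 8065 and 11743 CPM in other cells. Among those 12, Mbp, Pmp22 and Mal stood at least 2-fold above other cells in both libraries, while Mag, an adhesion protein of the inner myelin face, was at 9.28 CPM and 0 CPM. The 10 markers listed for Schwann cells in general summed to 6529 CPM in Drug-NIHL and 6857 CPM in NIHL, against 4146 and 4661 CPM in other cells. Of these 10, Cnp, Gpr37l1 and Sox2 were at least 2-fold higher in both libraries, and Sox2 is also a repair marker. In Drug-NIHL 1 of the 10 was at 0, and in NIHL 2 were. Sox10, the lineage factor of neural crest glia, was found in 21.4% of Drug-NIHL and 41.8% of NIHL Igfbp6-high members.

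Markers of other glial states were lower in sum. The 11 non-myelinating and satellite markers summed to 3024 CPM in Drug-NIHL and 2600 CPM in NIHL, below other cells at 5323 and 4955 CPM. Most of the sum in other cells was Apoe, at 4405 CPM in Drug-NIHL and 4091 CPM in NIHL. Among the 11 markers only the potassium channel Kcnj10, a satellite glia gene, was at least 2-fold above other cells in both libraries, at 394 and 374 CPM. In Drug-NIHL 2 of the 11 markers were at least 2-fold higher, and in NIHL 1 was. Scn7a was at 9.28 CPM and 0 CPM, and Matn2 and Ngfr were at 0 in both libraries, where 3 counts would be 13.9 CPM in Drug-NIHL and 28.1 CPM in NIHL. The 10 repair Schwann markers summed to 867 and 1197 CPM, with 7 at 0 in each library, against 2128 and 2171 CPM in other cells. Most of the latter was Jun, at 2020 CPM in Drug-NIHL and 2055 CPM in NIHL. Apart from Jun, the repair markers summed higher in the members than in other cells, in both libraries. Of the repair markers, Sox2 stood at least 2-fold above other cells in both libraries.

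Marker lists of other cell types were mixed in the Igfbp6-high members. The 8 macrophage markers summed to 97.4 CPM in Drug-NIHL and 103 CPM in NIHL members, against 1307 and 1200 CPM in other cells. The 8 endothelial markers summed to 51.0 and 37.4 CPM, against 1122 and 1009 CPM, with Pecam1 at 0 by the rule. These members were chosen for under 3 of the 9 neuronal markers, so that list is not given for them. The 10 perineurial markers summed to 492 and 608 CPM, against 487 and 513 CPM in other cells, with the hedgehog receptor Ptch1 at least 2-fold higher in both libraries. The 8 astrocyte markers summed to 640 and 337 CPM, against 544 and 388 CPM, with Slc1a3 at least 2-fold higher in both, and of the 9 melanocyte or intermediate cell markers, which summed to 886 and 767 CPM against 1502 and 982 CPM, Pmel and Kcnj10 were. Against the labelled sensory epithelium, 9 hair cell markers summed to 181 CPM in Drug-NIHL and 150 CPM in NIHL with 5 at 0 in each, below other cells at 789 and 796 CPM. The 10 supporting cell markers summed to 710 and 514 CPM with 3 and 8 at 0, against 687 and 694 CPM in other cells, with Cdh1 and Sox2 at least 2-fold higher in both libraries. Ttr, a choroid plexus transcript, was found in 0.763% of Drug-NIHL and 20% of NIHL Igfbp6-high members, and in 1.30% and 24.3% of macrophages.

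Set against barcodes with both Ncmap and Prx, the myelinating comparison, the Igfbp6-high members had less Pou3f1. It stood at 18.6 CPM in Drug-NIHL and 9.35 CPM in NIHL Igfbp6-high members, against 386 and 474 CPM in the myelinating comparison. Its relative Pou3f2, a selecting gene, stood the other way, 7.60-fold and 7.32-fold higher in the members. Fbln2, an extracellular matrix glycoprotein, was 10.4-fold and 17.4-fold higher in the members. The nuclear receptor Nr4a1 was at 37.1 and 37.4 CPM in the members, against 243 and 229 CPM.

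A set of non-myelinating glia was taken as barcodes with at least 2 of Scn7a, Abca8a, Cdh19 and Matn2 and neither Ncmap nor Prx. Against it the Igfbp6-high members carried more Chst2, a sulfotransferase gene, 30.1-fold in Drug-NIHL and 28.1-fold in NIHL. Gldn, the gene of gliomedin, which gathers sodium channels at nodes of Ranvier, was 16.3-fold and 42.8-fold higher. Elovl4, which elongates very long fatty acids, was 19.9-fold and 40.6-fold higher. The stress-induced factor Atf3 stood at 23.2 CPM and 103 CPM in the members, against 2004 and 2592 CPM in the non-myelinating set. Cebpd, an inflammation-induced factor, was at 27.8 and 56.1 CPM, against 622 and 887 CPM.

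A further set met the 6-gene rule but held Ncmap or Prx, with under 3 neuronal markers. It counted 458 barcodes in Drug-NIHL and 311 in NIHL and was not limited to the Igfbp6-high cluster. Scrublet marked 22.3% of the set in Drug-NIHL and 7.07% in NIHL. Apart from Ncmap and Prx themselves, the named genes differed from this set by less than 4-fold. Cdh11, a cadherin, was highest over it, at 158 CPM in Drug-NIHL and 131 CPM in NIHL Igfbp6-high members, against 59.9 and 51.6 CPM, and Hey2 was 1.74-fold and 1.76-fold higher. Ifi27l2a, an interferon-induced gene, was at 209 and 112 CPM in the members, against 593 and 432 CPM, and Btg2 and Socs3 were lower by more than 2-fold in both libraries.

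Most cells of the Igfbp6-high cluster were kept out of the rule by those 2 genes. Of its 525 Drug-NIHL and 297 NIHL cells, 459 (87.4%) and 261 (87.9%) held at least 3 selecting genes, and 363 (69.1%) and 227 (76.4%) held Ncmap or Prx. In cells of the cluster that were not members, Prx had a UMI in 88.5% in Drug-NIHL and 91.6% in NIHL, and Ncmap in 19.0% and 23.4%. Prx stood at 858 and 847 CPM in them, above other cells at 193 and 254 CPM. Ncmap stood at 158 and 178 CPM, below other cells at 235 and 346 CPM. Most of these cells were left out for holding Ncmap or Prx, so their shares partly restate the choice. Prx UMIs were also found in 14.1% of Drug-NIHL and 19.1% of NIHL macrophages, and Ncmap UMIs in 12.3% and 16.2%. After thinning every barcode to 1000 UMIs, the macrophage shares were 8.82% and 9.12% for Prx and 7.37% and 9.12% for Ncmap. Against the 390 Drug-NIHL and 239 NIHL cells of the cluster that were not members, Cdh11 was 2.36-fold and 2.22-fold higher in the members, and the other 9 genes named as higher lay between 1.38-fold and 1.66-fold.

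The neuron-marker members are described here by genes of their pooled counts. Pvalb, a calcium-binding protein of these neurons, had a UMI in 99.1% of them in Drug-NIHL and 98.7% in NIHL. The 9 markers that chose them summed to 10247 CPM in Drug-NIHL and 10338 CPM in NIHL, which restates the choice. The sodium channel Scn1a was 7.90-fold and 6.89-fold higher than in other cells and the proprotein convertase Pcsk2 8.94-fold and 7.27-fold.

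Selecting genes took a small part of these large transcriptomes. The neuron-marker members held a median of 12 UMIs of the 6 genes in Drug-NIHL and 16 in NIHL, against 17 and 18 in the Igfbp6-high members. With totals far above those of the Igfbp6-high members, the neuron-marker members had Igfbp6 at 824 CPM in Drug-NIHL and 953 CPM in NIHL. Other barcodes rich in neuronal markers, 506 in Drug-NIHL and 453 in NIHL, held Igfbp6 in 68.2% and 69.8%. Hey2, which chose the members but not that set, was 2.57-fold and 1.63-fold higher in the members, and Osbpl5, an oxysterol-binding protein relative, 2.27-fold and 1.87-fold.

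The scattered members carried fewer Igfbp6 UMIs, with medians of 5.5 in Drug-NIHL and 1 in NIHL, against 11 and 13 in Igfbp6-high members. Of the 10 markers listed for Schwann cells in general, Gpr37l1 and Sox2 stood at least 2-fold above other cells in both libraries. Their deepest barcodes held 9406 and 30219 UMIs. The 6 choroid plexus markers summed to 1064 CPM in Drug-NIHL and 39246 CPM in NIHL scattered members. Sums over them therefore rest on a few barcodes, and no gene of theirs is compared between the libraries.

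Members made up 1.47% of Drug-NIHL cells (exact binomial 95% interval 1.30 to 1.64) and 0.999% of NIHL cells (0.856 to 1.16). The ratio of the shares was 1.47 (1.21 to 1.78). Igfbp6-high members were 0.651% of cells in Drug-NIHL and 0.316% in NIHL, a ratio of 2.06 (1.49 to 2.88). For neuron-marker members the shares were 0.556% and 0.448%, a ratio of 1.24 (0.922 to 1.68), and for scattered members 0.258% and 0.235%, a ratio of 1.10 (0.715 to 1.70). The last 2 intervals included 1. The cluster was built with genes that themselves differed between the libraries, so the ratio of the Igfbp6-high members may also count that difference.

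The ratio of all members was lower when Ncmap and Prx were not asked. Barcodes with at least 3 selecting genes and no Pecam1, whether or not they held Ncmap or Prx, were 1024 in Drug-NIHL and 749 in NIHL, a share ratio of 1.18 (1.08 to 1.30). Members were 28.8% of those barcodes in Drug-NIHL and 23.2% in NIHL. All cells of the Igfbp6-high cluster, with or without Ncmap or Prx, were 2.61% of cells in Drug-NIHL and 1.70% in NIHL. Their share ratio was 1.53 (1.32 to 1.77). In the same libraries, barcodes of the myelinating comparison were 11.2% and 18.0% of cells, a ratio of 0.621 (0.588 to 0.656). Chosen by at least 3 of the other 5 genes, with Sostdc1 left out of the rule, members gave a share ratio of 1.504.

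**Figure D3:**
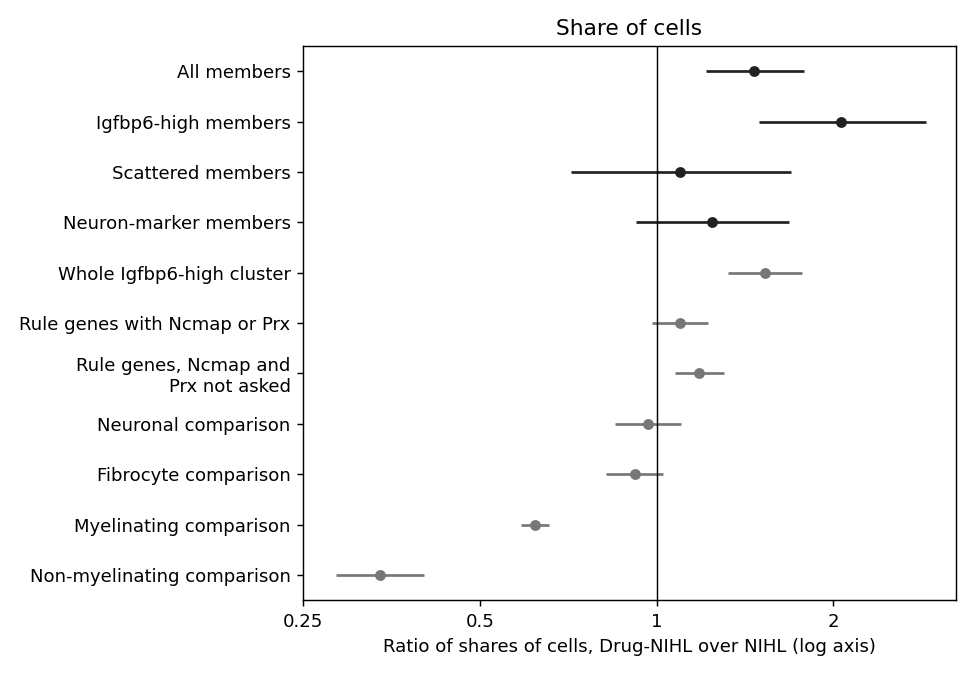
Ratio of each share of cells, Drug-NIHL over NIHL (horizontal log axis), with 95% counting intervals, for members (black) and comparison sets (grey). Igfbp6-high members stood at 2.06, all members at 1.47 and the whole Igfbp6-high cluster at 1.53. The 6-gene set without regard to Ncmap and Prx stood at 1.18, and the myelinating comparison at 0.621.

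Between Drug-NIHL and NIHL, 574 of 7102 genes with at least 50 UMIs in all members differed by at least 1.5-fold (8.08%), of which 310 were higher (4.36%) and 264 lower (3.72%). These sums over all members are weighted to the deep neuron-marker barcodes. In the Igfbp6-high members alone, 88 of 945 genes differed by at least 1.5-fold (9.31%), with 38 higher (4.02%) and 50 lower (5.29%). Among other cells the share was 6.45%. The sums behind the Igfbp6-high values were 215642 UMIs in Drug-NIHL and 106905 UMIs in NIHL, so a gene of 50 UMIs has a wide interval. Of the 88 genes, 47 had an interval that excluded 1, and the share of 9.31% lay near that of all members, so nothing is read from the count itself.

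Of the selecting genes, Sostdc1 differed most within the Igfbp6-high members. It stood at 1693 CPM in Drug-NIHL and 1094 CPM in NIHL, a ratio of 1.55 (1.25 to 1.92). When the cells were chosen by the other 5 genes, in the same cluster, Sostdc1 was at 1652 CPM in 110 Drug-NIHL cells and 1083 CPM in 48 NIHL cells, a ratio of 1.53 (1.22 to 1.93). These cells overlap with the Igfbp6-high members and come from the same cluster, so this ratio is not independent of the first. In other cells Sostdc1 ran the other way, at 88.0 CPM in Drug-NIHL and 132 CPM in NIHL. The ratio of Sostdc1 was 1.14 (1.04 to 1.25) in the set that met the 6-gene rule but held Ncmap or Prx. It was 1.21 (0.977 to 1.51) in neuron-marker members. Cells of the Igfbp6-high cluster that were not members had Sostdc1 at 1265 CPM in Drug-NIHL and 1022 CPM in NIHL. After thinning to 1000 UMIs, which left out 15 Drug-NIHL and 2 NIHL cells, Sostdc1 was found in 78.4% and 58.5% of Igfbp6-high members.

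The other 5 selecting genes differed less. Igfbp6 had a ratio of 1.12 (1.02 to 1.22), and it was also 1.12 in other cells (1.09 to 1.15). After thinning each Igfbp6-high member to 1000 UMIs the ratio of Igfbp6 was 0.996. The intervals of Pou3f2 at 1.19 (0.900 to 1.60), Them5 at 1.003 (0.694 to 1.47), Hey2 at 0.970 (0.673 to 1.42) and Slc6a15 at 0.934 (0.715 to 1.23) all included 1. Intervals of this width do not show that the libraries had equal levels.

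The rule named 12 genes as higher in Drug-NIHL Igfbp6-high members. Slc38a2, a neutral amino acid transporter, stood at 816 CPM in Drug-NIHL and 496 CPM in NIHL, a ratio of 1.65 (1.20 to 2.28). Slc1a3, the glial glutamate transporter GLAST, stood at 547 and 309 CPM, a ratio of 1.77 (1.20 to 2.69). Col9a3 stood at 918 and 496 CPM, a ratio of 1.85 (1.36 to 2.56). In the barcodes with the same genes plus Ncmap or Prx, these 3 ratios were 1.48, 1.52 and 1.49, each with an interval above 1.

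Gsta4, a glutathione transferase that detoxifies lipid aldehydes, had 366 CPM in Drug-NIHL and 168 CPM in NIHL Igfbp6-high members. The ratio was 2.18 (1.29 to 3.86), and 2.14 (1.79 to 2.58) in the barcodes with Ncmap or Prx. In neuron-marker members the ratio of Gsta4 was 0.333 (0.243 to 0.451). Calcium-binding S100a1 stood at 1632 CPM in Drug-NIHL and 1197 CPM in NIHL Igfbp6-high members, a ratio of 1.36 (1.11 to 1.68), and 1.37 in the barcodes with Ncmap or Prx.

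The remaining higher genes did not all carry over to those barcodes. Rrbp1, which binds ribosomes to the endoplasmic reticulum, had a ratio of 3.82 (1.73 to 9.96) on 54 UMIs in Drug-NIHL and 7 in NIHL, but 0.991 in the barcodes with Ncmap or Prx. The chaperone gene Hsp90b1 had 1.56 (1.12 to 2.21), against 0.976 there. Lars2, a mitochondrial leucyl-tRNA synthetase, had 1.98 (1.23 to 3.32), against 1.11, and Ndfip1, an adaptor of ubiquitin ligases, 1.62 (1.09 to 2.45), against 0.957. Syt4, a synaptotagmin, had 2.15 (1.13 to 4.42) and Tmem176b, a membrane protein, 1.81 (1.09 to 3.13), each 1.41 there.

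The rule named 12 genes as lower in Drug-NIHL. Cd9, a tetraspanin of peripheral myelin, stood at 1795 CPM in Drug-NIHL and 3078 CPM in NIHL Igfbp6-high members, a ratio of 0.583 (0.502 to 0.678). Its ratio was 0.655 in the barcodes with Ncmap or Prx and 0.630 in other cells, so the lower Cd9 level was not limited to the members. Mbp had a ratio of 0.777 (0.693 to 0.872), against 0.831 in other cells. Barcodes of the myelinating comparison were 11.2% of cells in Drug-NIHL and 18.0% in NIHL. The part of that mix in the ratios of other cells was not tested.

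The genes named as lower included 3 FXYD genes, whose products regulate the sodium pump. Each was named for its lower ratio, so their shared direction follows from the choice and is no finding on the family. Other FXYD genes are not given here. Fxyd6 stood at 2013 CPM in Drug-NIHL and 2947 CPM in NIHL, a ratio of 0.683 (0.589 to 0.792). Fxyd1 had 0.591 (0.423 to 0.828) and Fxyd3 0.740 (0.614 to 0.893). Cdkn1b, the cell cycle inhibitor p27, was at 246 and 440 CPM, a ratio of 0.559 (0.370 to 0.846). Actg1, Ubb, Tmsb4x, Oaz1, Selenok and the cholesterol gene Hmgcs1 made up the rest, with ratios of 0.656 to 0.810.

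**Figure D4:**
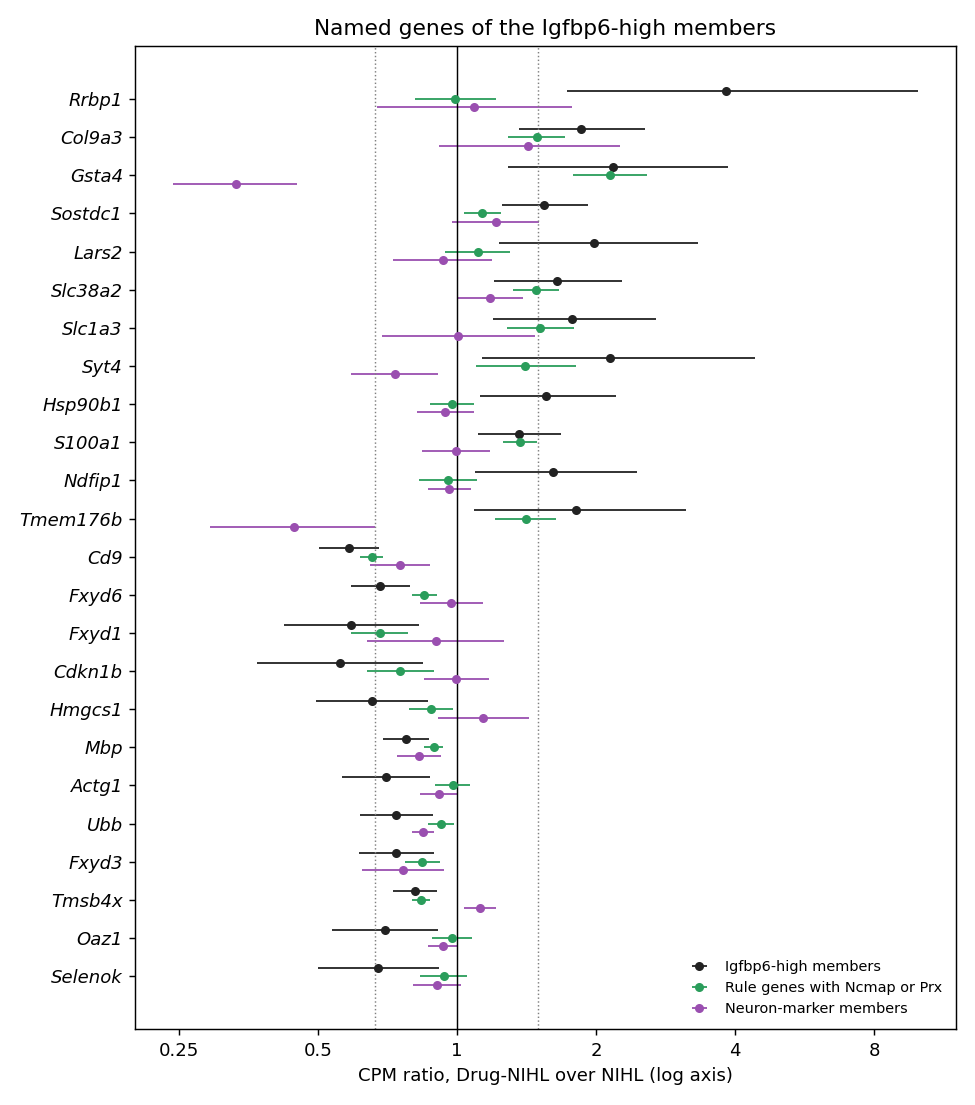
CPM ratio of Drug-NIHL over NIHL (log axis) with 95% counting intervals for the 24 genes named in Igfbp6-high members, beside the ratio in barcodes with Ncmap or Prx and in neuron-marker members; dotted lines mark 1.5-fold. Col9a3, Slc38a2 and Gsta4 lay above 1 and Cd9 and Fxyd1 below 1 in both glial sets, while Gsta4 was at 2.18 in Igfbp6-high members and 0.333 in neuron-marker members.

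Gene lists were read as counts and medians beside all genes with at least 20 UMIs. In Igfbp6-high members the background was 2516 such genes, of which 538 (21.4%) differed by at least 1.5-fold, 9.02% being higher and 12.4% lower in Drug-NIHL, with a median log2 ratio of -0.06. The immediate early and AP-1 genes, transcription factors induced within minutes of a stimulus, stood lowest among the lists with at least 5 genes. Of 15 measured, 14 were below 0, 10 were at least 1.5-fold lower and 0 higher, with a median log2 ratio of -0.83.

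Fos stood at 988 CPM in Drug-NIHL and 1796 CPM in NIHL Igfbp6-high members, a ratio of 0.550 (0.450 to 0.672), and was found in 39.7% and 43.6% of them. Jun had 473 and 907 CPM, a ratio of 0.521 (0.391 to 0.696). Egr1 had 436 and 776 CPM, a ratio of 0.561 (0.413 to 0.764), and Fosb 130 and 346 CPM, a ratio of 0.375 (0.221 to 0.630). The same list had a median of -0.17 in the barcodes with Ncmap or Prx, -0.06 in other cells and -0.03 in neuron-marker members. In cells of the Igfbp6-high cluster that were not members, Jun stood at 693 CPM in Drug-NIHL and 683 CPM in NIHL. The list as a whole was not compared in those cells. In the barcodes with Ncmap or Prx, Fos stood at 2410 CPM in Drug-NIHL and 3340 CPM in NIHL, above the members in both libraries.

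Mitochondrially encoded transcripts stood higher in Drug-NIHL, in members and other cells alike. In Igfbp6-high members 13 of 13 were above 0 with a median log2 ratio of 0.16, against 0.39 in other cells. Median mitochondrial content was 11.7% in Drug-NIHL and 9.87% in NIHL Igfbp6-high members. The 18 nuclear genes of the respiratory chain had a median of 0.00, with 9 above and 9 below 0.

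Myelin genes had a median of -0.15 over 14 measured in Igfbp6-high members, with 1 at least 1.5-fold higher and 2 lower. The median was -0.41 in other cells, whose share of myelinating comparison barcodes differed between the libraries. For cholesterol synthesis and uptake, 4 of 14 measured genes were at least 1.5-fold lower and 0 higher, with a median of -0.17. Hmgcs1, an early enzyme of the pathway, was at 570 CPM in Drug-NIHL and 870 CPM in NIHL. The heat shock chaperones had a median of -0.24 over 8 genes, with 0 past 1.5-fold in either direction. Extracellular matrix genes had a median of 0.22 over 11, with 0 past 1.5-fold, and Sparc, a matricellular glycoprotein, at 1.43 (1.07 to 1.94).

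Transport and channel lists were mixed. Of 7 measured amino acid and glutamate transport genes, 3 were at least 1.5-fold higher and 1 lower, with a median of 0.05. Potassium, gap junction and water channel genes had a median of -0.24 over 9, with 1 at least 1.5-fold higher and 0 lower. The gene named in it was Gjc3, a connexin of myelinating glia, whose ratio of 0.675 (0.479 to 0.955) was short of 1.5-fold. Metallothioneins and antioxidants had a median of 0.03 over 11, Mt3 being at 0.919 (0.855 to 0.987). Of the BMP and Wnt pathway 8 genes were measured, with 2 at least 1.5-fold higher and a median of -0.21. Of the histone deacetylase genes 0 reached 20 UMIs. The 9 measured genes of a list reported to follow deacetylase inhibition had a median of -0.03.

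**Figure D5:**
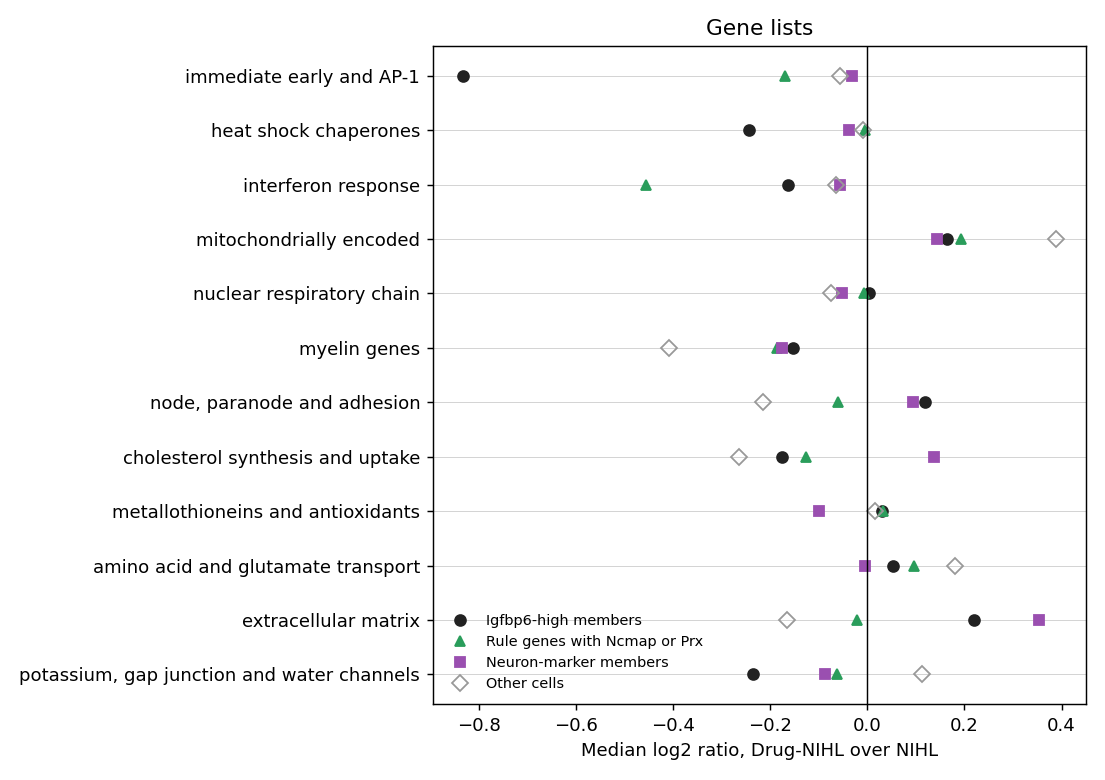
Median log2 ratio, Drug-NIHL over NIHL, of 12 gene lists in Igfbp6-high members, barcodes with Ncmap or Prx, neuron-marker members and other cells. Immediate early and AP-1 genes stood at -0.83 in Igfbp6-high members and between -0.17 and -0.03 in the other sets, and mitochondrially encoded genes were above 0 in all 4.

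In the neuron-marker members, 450 of 5942 genes with at least 50 UMIs differed by at least 1.5-fold (7.57%), of which 253 were higher (4.26%) and 197 lower (3.32%). Pcp4, a regulator of calmodulin, stood at 1763 CPM in Drug-NIHL and 52.9 CPM in NIHL, with a UMI in 24.1% and 8.97% of the barcodes. Tac1, the precursor of substance P, stood at 361 and 42.3 CPM, in 22.3% and 3.85%. The ratio of Pcp4 in other cells was 4.75 and that of Tac1 16.6, so both were higher in Drug-NIHL outside the members too. In NIHL, 1 barcode held 54.0% of the Pcp4 UMIs and 1 held 82.5% of the Tac1 UMIs.

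Synuclein gamma (Sncg) stood at 654 CPM in Drug-NIHL and 220 CPM in NIHL neuron-marker members, a ratio of 2.97 (2.54 to 3.49), with similar shares of barcodes, 73.2% and 78.2%. Its ratio was 0.873 (0.636 to 1.21) in Igfbp6-high members. Calb2, calretinin, which marks a subtype of type I spiral ganglion neurons, stood at 2387 and 3259 CPM and was found in 53.6% and 71.8%. Lypd1, a marker of another subtype, stood at 1305 and 1283 CPM, in 42.9% and 47.4%. Fabp3, a fatty acid binding protein, was at 1069 and 1962 CPM, a ratio of 0.545 (0.505 to 0.588), and at 0.527 in other cells. Tnfrsf12a, a receptor induced in injured tissue, was at 79.3 and 183 CPM, a ratio of 0.433 (0.328 to 0.567), in 36.6% and 73.1% of the barcodes.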

How the data were processed

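Raw UMI counts per gene and barcode, as deposited, were used for both libraries. Per the file headers the matrices are Cell Ranger 5.0.1 output. The submitters' processing notes name the builds GRCm38 and mm10 and the tools Seurat 3.2.2, STAR and Cell Ranger 5.0, without saying what each did. The files held 21773 Drug-NIHL and 18545 NIHL barcodes with 39939170 and 38380393 UMIs, all of at least 500 UMIs; the labels state roughly 20000 recovered cells. Of the 32285 genes, 32158 had an identifier in GENCODE M21, the source of coordinates.

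For each kind of cell and library, UMIs were added up per gene and divided by their total (CPM). Ratios have exact conditional binomial and shares exact Clopper-Pearson 95% intervals; log2 ratios added 0.5 UMI to each sum, and a sum of 0 was set to 3 counts for a bound. Genes needed 50 UMIs in both sums together, or 20 in lists. With 1 library per group no p-value was computed. All cells were clustered on 3000 variable genes, 30 principal components, 15 neighbours and Leiden resolution 1 without integration (scanpy 1.11.5, leidenalg 0.10.2, Python 3.11.15), and Scrublet (expected rate 0.08) marked doublets, which were kept. TMM factors came from edgeR 4.0.16. The ratio step was tested on simulated data.

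Identity genes were the 15 with the highest smaller-of-2-libraries ratio and the 15 most abundant, with a UMI in at least 20% of members, and against each glial set the 10 per direction. Between the libraries, the 12 genes per direction were named whose interval bound nearest 1 lay furthest from it, given 50 UMIs or more in the larger sum, a UMI in at least 5% of cells, a share no lower than in other cells and at most 20% of UMIs in 1 cell. List members were named by the same distance, up to 4 per direction. Mitochondrially encoded, ribosomal, haemoglobin, sex-linked marker and lymphocyte receptor genes were not named, nor were gene models lacking a symbol; other glial genes, those given as markers of a type or subtype, and the cell kinds named in the text were chosen after values were seen. The members and lists were chosen with earlier results of these data known. Some genes are not reported here.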

Additional observations from a re-analysis of the deposited data

Results flagged for a closer look

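Among the named and selecting genes, 6 had a ratio of Drug-NIHL over NIHL above 1 in one kind of member and below 1 in the other. Both intervals were clear of 1. This is no count over all measured genes. Gsta4, Tmem176b, Syt4 and Tmsb4x had themselves been named for their ratio in Igfbp6-high members. The difference between the kinds was not tested. Gsta4 had a ratio of 2.18 in Igfbp6-high members and 0.333 in neuron-marker members. Tmem176b had 1.81 and 0.445, and Syt4 had 2.15 and 0.734. Igfbp6 itself had 1.12 in Igfbp6-high members and 0.865 in neuron-marker members. Ptgds, prostaglandin D synthase, ran the other way at 0.815 in Igfbp6-high members and 2.64 in neuron-marker members, as did Tmsb4x at 0.810 and 1.12. In other cells Ptgds stood at 1.35 and Gsta4 at 1.29.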

How the results depend on the processing

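No paired analysis was possible because each group has 1 library. The share ratio of 1.47 lay between 1.22 and 1.73 under 11 alternatives. It was 1.10 with at least 2 of the 6 genes, 1.18 when Ncmap and Prx were not asked, 2.01 in the cluster with most members, 2.06 in Igfbp6-high members and 1.10 in scattered members. The count of 574 genes was 105 after thinning to 1000 UMIs, 89 in that cluster, 1204 by the mean of each cell's CPM, 1518 at 20 UMIs, 5954 with no minimum and 119 at a fold of 2. It was 336 in members with under 3 neuronal markers (107 when thinned), 88 in Igfbp6-high members, 255 in scattered members and 872 when Ncmap and Prx were not asked. Fewer UMIs or members enter most of these.

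Over all members, 387 ratios of named genes kept their size within the spread used, 143 moved and 22 reversed; of list medians, 505, 56 and 2. Thinned ratios reversed for Pou3f2 (0.920), Fabp3 (2.29), Spock1 (0.845) and Tnfrsf12a (1.21). In the cluster with most members, Cndp2 was 2.52, Pcdh9 0.757, Ptgds 0.846, Sncg 0.860 and Spock1 0.448. In Igfbp6-high members they were 2.48, 0.744, 0.815, 0.873 and 0.441. In members with under 3 neuronal markers Rbms3 was 0.833 and Xrcc5 1.68, and thinned Fabp3 was 1.07 and Rbms3 0.537. In scattered members Fabp3 was 1.02, Rbms3 0.762 and Xrcc5 1.02. Ptgds was 0.840 with at least 2 of the 6 genes. The cytokine list had a median of -0.26 with at most 10% mitochondrial UMIs and -0.078 in neuron-marker members. The cause was not tested.

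The 24 genes named in Igfbp6-high members kept their direction by the mean of each cell's CPM, without the top cell, without mitochondrially encoded UMIs, after thinning and without doublets. These alternatives recount UMIs of the same cells by which the genes were named, so the kept direction is no separate evidence. Alternatives by cell kind were chosen after seeing the data. Depth limits the Igfbp6-high members, where 945 genes reached 50 UMIs.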
